A study of Homo sapiens with 16 samples.

Results

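Translation runs through a small set of proteins that every cell makes in bulk. Initiation factors (eIF) place the ribosome and the initiator tRNA at the start codon, elongation factors (eEF) bring aminoacyl-tRNAs and move the ribosome along, release factors end the chain, and aminoacyl-tRNA synthetases load each tRNA with its amino acid. Argonaute 2 (Ago2) is the protein that microRNAs guide to mRNAs, mostly through pairing of the microRNA seed with sites in 3′ untranslated regions (3′ UTRs). Hippuristanol, a compound first obtained from a coral, inhibits eIF4A, the helicase that opens the 5′ end of mRNAs for initiation.

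The genes described here are the translation factors and tRNA synthetases in which Ago2 peaks were listed: eIF1 to eIF6 genes other than the eIF4 family, eEF1 and eEF2 genes, cytoplasmic poly(A)-binding proteins, the release factors ETF1 and GSPT, synthetases, and GNB2L1, chosen by gene name. The name rule found 16 of the 2213 genes with a peak. Together they held 36 of 4768 listed peaks, and 35 of 4718 once peaks of the same gene with identical values were counted once. They were EIF1, EIF2S1, EIF2S3, EIF3A, EIF3J, EIF5A, EIF5B, EEF1G, EEF2, ETF1, PABPC1, DARS, EPRS, GARS, LARS and GNB2L1.

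The study used 293S cells, a laboratory line derived from human embryonic kidney, given 1 µM hippuristanol for 30 min or left untreated, with 2 cultures per treatment and no other difference named in the labels. Each culture supplied 1 RNA-seq library and 3 CLIP libraries (crosslinking, precipitation with an Ago2 antibody, sequencing of the bound RNA), 1 per antibody supplier. Of the 16 libraries described, 12 are CLIP libraries. The values used here are the authors' own CLIP values and come as 1 number per peak, and the file names no library, so which libraries entered them is not stated. The log average is the peak's level over both treatments, and the log ratio is hippuristanol over untreated. Neither the base of the logarithm nor the kind of normalization is stated in the sources used here. Levels and differences are therefore left on the authors' log scale and were not turned into folds. No difference has a replicate check, no test was possible, and the depth of each library is unknown. Whether a log ratio reflects Ago2 contact, the amount of the transcript or the mixture of cells cannot be told apart in these bulk values. Of 3 genes described as expressed in this line, 2 had peaks, NEFL and LIN28B, and 0 of 13 marker genes of other cell types did. A gene can lack an Ago2 peak and still be expressed, so these counts do not settle the cell label.

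Of the 16 genes, 8 had peaks in the 3′ UTR, and 4 of these carried a match to the seed of 1 of 5 microRNA families searched there. The families were let-7, miR-17, miR-15/16, miR-19 and miR-92, chosen because their members are well-known Ago2 cargo. A match was the 7-nt complement of bases 2 to 8 of the microRNA on the mRNA strand, spelled CTACCTC for let-7, GCACTTT for miR-17, TGCTGCT for miR-15/16, TTTGCAC for miR-19 and GTGCAAT for miR-92. The 2 microRNAs whose seeds were matched are shown first, with the seed in capitals, from RefSeq on GRCh38.p14, and then the 4 sites, with the seed match in capitals, from GENCODE 29 transcripts on GRCh38.
hsa-miR-17-5p (chr13:91350618-91350640, plus strand): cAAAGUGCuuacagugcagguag
hsa-miR-16-5p (chr13:50049027-50049048, minus strand): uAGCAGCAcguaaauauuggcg
EIF2S1, miR-17 seed match (chr14:67386344-67386369, plus strand): acaaatttttacttaaGCACTTTgag
ETF1, miR-17 seed match (chr5:138507726-138507751, minus strand): ggtgagctaataggagGCACTTTcaa
EIF3A, miR-15/16 seed match (chr10:119035080-119035105, minus strand): aagccaacacagaactTGCTGCTgtg
EIF5A, miR-15/16 seed match (chr17:7312075-7312100, plus strand): gggagaagggggtgggTGCTGCTtgt

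The EIF2S1 match began 2920 nt after the stop codon in a 3′ UTR of 3076 nt, close to its end, and the ETF1 match 570 nt into 2206 nt. The EIF3A match began at 950 of 2369 nt and the EIF5A match at 281 of 653 nt. The peaks are listed on hg19 and the sequences on GRCh38, so whether a match lies under a peak was not determined. At least 1 such match was held by 4 of the 8 genes (50.0%), against 70.3% of all 1467 genes with a 3′ UTR peak and a matched transcript. The 3′ UTRs of the 8 genes had a median length of 919.5 nt, against 1649 nt for the other 1459 genes. No match was found in DARS, EEF2, EIF2S3 or PABPC1. For EIF2S3 the search covered a 3′ UTR of 1186 nt, shorter than the 1987 nt that its peaks span on the genome. Any intron would count in that span, so whether all of the listed region was searched is not known.

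Peaks of these genes were divided among coding sequence (CDS), 3′ UTRs and 5′ UTRs, with no single class holding most of them, while 3′ UTRs held most of the other peaks. In CDS lay 16 of 35 peaks (45.7%, exact Clopper-Pearson 95% interval 28.8% to 63.4%), against 19.9% of the other 4683 peaks. In 5′ UTRs lay 6 (17.1%, 6.56% to 33.6%), against 3.82% of the other peaks, and in 3′ UTRs 13 (37.1%, 21.5% to 55.1%), against 61.5%. These intervals treat peaks as independent, which peaks of 1 gene are not. Non-coding exons held 690 of the other peaks (14.7%) and 0 of these 35. The name rule takes protein-coding genes, so that class lowers the shares of CDS and of both UTRs among the other peaks only. The by-gene shares below are affected likewise, since 133 of the other genes had a non-coding peak. By gene, 7 of 16 had a CDS peak (43.8%, against 31.3% of the other 2197 genes), 4 a 5′ UTR peak (25.0% against 6.55%) and 8 a 3′ UTR peak (50.0% against 69.6%). EEF2 alone gave 6 of the 16 CDS peaks, and without it CDS and 3′ UTRs held 10 of 26 peaks each (38.5%). PABPC1 gave 3 of the 6 peaks in 5′ UTRs, and with only 1 of each set of overlapping peaks the 5′ UTR share was 12.9%.

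**Figure D1:**
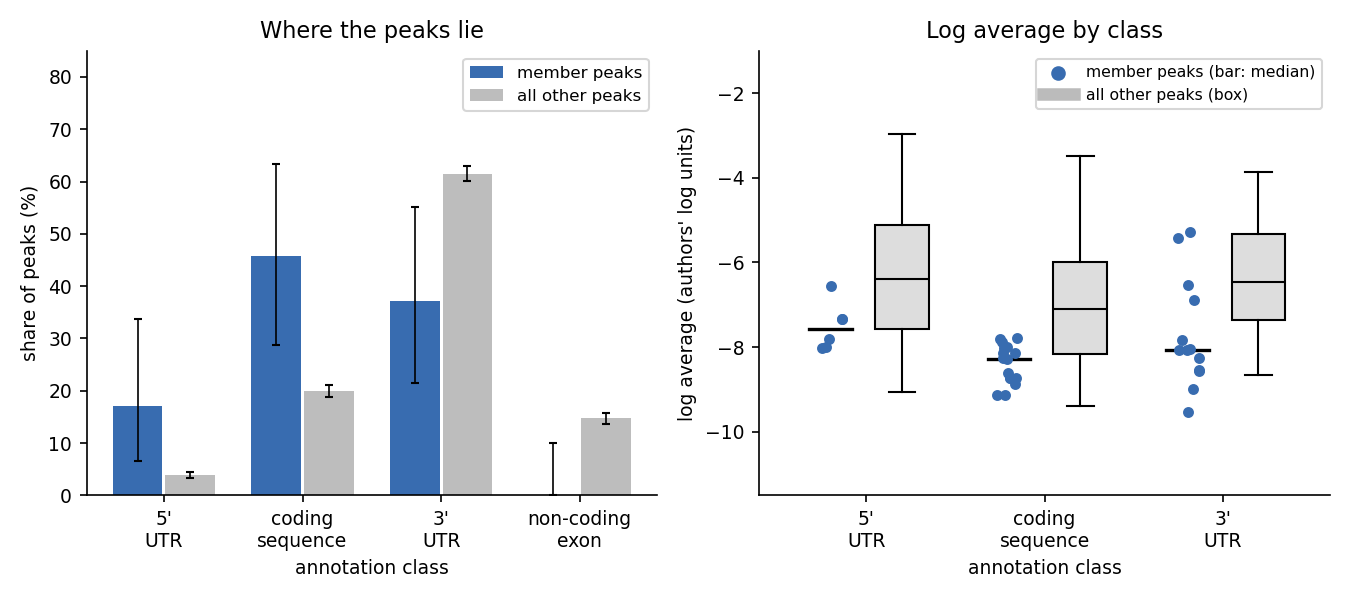
Left: share of Ago2 peaks (%) in each annotation class for the 35 peaks of translation factor and synthetase genes (blue) and the 4683 other peaks (grey), with exact 95% intervals over peaks. Right: log average (authors' log units) of each such peak by class (blue points, bar at the median) beside boxes of the other peaks (quartiles, whiskers at percentiles 5 and 95); the CDS share is 45.7% against 19.9%, and in each class the blue median lies below the box's median.

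The log averages of these genes were low in the table. The median over the 16 genes was −8.01 (95% order-statistic interval −8.20 to −6.89), against −6.29 for the other 2197 genes, and 15 of the 16 lay below the median gene of the table, at −6.30. EIF5A was the exception at −5.35, and EIF3A, the largest subunit of eIF3, was the lowest at −9.54. The position held within annotation classes. The 16 CDS peaks had a median log average of −8.27 against −7.11 for other CDS peaks, and all 16 lay below the median of CDS peaks. For 3′ UTR peaks the medians were −8.06 and −6.45, and 11 of 13 lay below the class median. For 5′ UTR peaks they were −7.58 and −6.39, and 6 of 6 lay below. Genes of related function were on the low side too, with medians of −6.97 over 34 ribosomal protein genes and −8.07 over 5 genes with names starting EIF4. These 5 include EIF4EBP2, which encodes an eIF4E-binding protein and had the highest value of the 5, −6.38. What the authors divided by is not given, so a low log average may not be read as little Ago2 on these mRNAs.

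**Figure D2:**
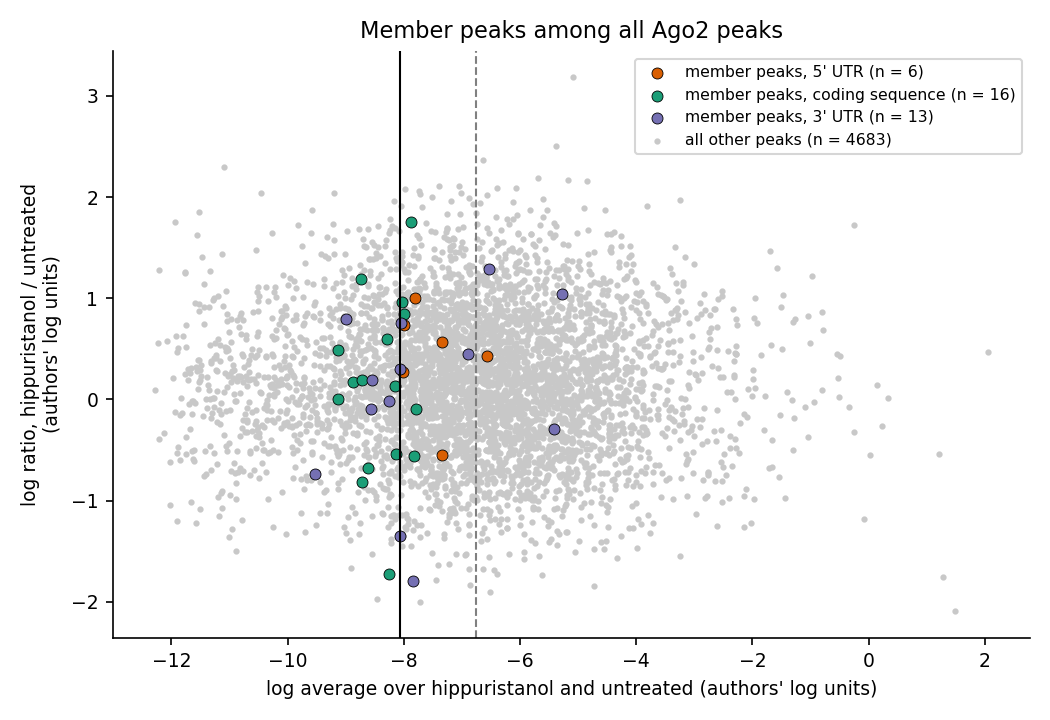
Log average over both treatments (x axis) against log ratio of hippuristanol over untreated (y axis), both in the authors' log units, for 35 peaks of translation factor and synthetase genes (coloured by class) and 4683 other peaks (grey). The solid line marks the median log average of the coloured peaks, −8.06, and the dashed line that of all peaks, −6.76; along the y axis the coloured peaks spread from −1.80 to 1.75 on both sides of 0.

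The log ratios of the same genes lay on both sides of 0 and of the median gene. The median of the gene values, each the median of the gene's peaks, was 0.34 (95% interval −0.68 to 0.60), against 0.17 for the other genes, and the interval spans that level. Of the 16 gene values, 11 lay above 0, which is 68.8%, where 60.5% of all genes did. By peak, 22 of 35 lay above 0, where 59.1% of all peaks did. A log ratio above 1 was listed for 4 of 35 peaks (11.4%), at a background of 11.3% of all peaks, and one below −1 for 3 (8.57%), at a background of 4.22%. The 4 high peaks lay in GARS, EIF2S1, EEF2 and EIF5A, 1 in each. The 3 low ones lay in EIF2S3, which had 2 that overlap, and in GNB2L1. Of the gene values 1 lay above 1 (background 9.17%) and 1 below −1 (background 3.43%), those of EIF2S1 and EIF2S3. The shares of high peaks and of peaks above 0 were thus near their backgrounds, and the count of low peaks rests on 2 genes.

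**Figure D3:**
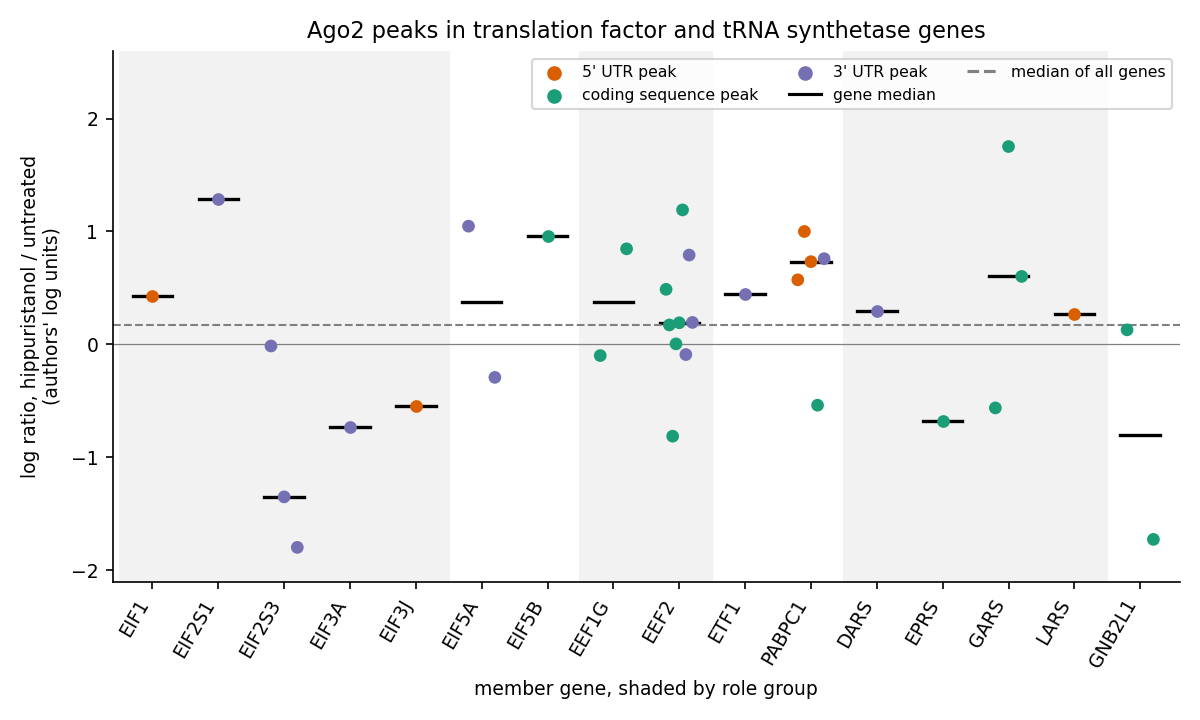
Log ratio of hippuristanol over untreated (authors' log units) of each Ago2 peak in the 16 genes, ordered and shaded by role, coloured by annotation class. Black bars are gene medians and the dashed line is the median of all genes, 0.17; EIF2S1 at 1.29 and EIF2S3 at −1.35 have the highest and lowest gene medians.

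Among initiation factors that act up to start-codon recognition, 3 of 5 genes lay below the median gene and the median was −0.55. eIF2 is the trimer that carries the initiator tRNA to the ribosome, and its subunits stood at opposite ends. EIF2S1, the alpha subunit whose phosphorylation shuts down initiation in stress, had 1 peak in its 3′ UTR (chr14:67853062-67853088, plus strand, hg19) with a log ratio of 1.29 at a log average of −6.54. That is the highest gene value of the 16 and stands at percentile 96.3 of all genes. EIF2S3, the GTP-binding gamma subunit, had 3 peaks in its 3′ UTR, with log ratios of −0.01, −1.35 and −1.80 from 5′ to 3′. The downstream pair overlapped by 18 nt and so may share reads, and lay 1887 nt and more from the peak near 0. The lower of the pair (chrX:24096848-24096905, plus strand, hg19) had rank 7 from the bottom of all 4718 peaks, and the one it overlaps had rank 56. The low gene value of EIF2S3, at percentile 0.949 of all genes, is therefore the value of 1 stretch, while its upstream peak was near 0. EIF2S2, the beta subunit, is not among the genes with a listed peak.

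The other initiation factors had 1 peak each. EIF1, which guards start-codon selection, had a 5′ UTR peak with a log ratio of 0.43 and a log average of −6.56. EIF3J, a loosely attached subunit of eIF3, had a 5′ UTR peak with a log ratio of −0.55. EIF3A had a 3′ UTR peak (chr10:120795543-120795589, minus strand, hg19) with a log ratio of −0.73. Both eIF3 subunits were thus below the median gene, at percentiles 8.04 for EIF3A and 13.1 for EIF3J. Each of these values is that of a single peak.

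EIF5A and EIF5B both lay above the median gene. EIF5B, the GTPase that joins the ribosomal subunits, had 1 CDS peak with a log ratio of 0.96, at percentile 90.0 of all genes. EIF5A, the hypusine-bearing factor that helps ribosomes through stalling sequences, had the highest log averages of the set, −5.28 and −5.41. Its 3′ UTR peaks had opposite log ratios, 1.05 upstream and −0.29 downstream (chr17:7215161-7215231, plus strand, hg19), with 191 nt between them. The value of 1.05 was listed for 2 stretches of 18 nt, starting at 7214952 and at 7215140 and 170 nt apart, with identical log averages. They were counted as 1 peak. The second of these lies next to the peak at −0.29, so neighbouring stretches of the same 3′ UTR differed by 1.34.

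The elongation factor EEF2, which moves the ribosome by a codon, had the most peaks of the set, 9, and a gene value of 0.19, close to the median gene. Along the mRNA, its 6 CDS peaks had log ratios of 0.49, 0.17, −0.81, 0.00, 0.19 and 1.19, and its 3 peaks in the 3′ UTR had −0.09, 0.79 and 0.19. The median was 0.18 over the CDS peaks and 0.19 over the 3′ UTR peaks, so neither part of the mRNA was set apart. The lowest of them (chr19:3983109-3983149) and the highest (chr19:3976650-3976722, minus strand, hg19) were both in CDS and differed by 2.00. Log averages of the 9 peaks stayed between −9.14 and −8.54, a range of 0.60, so the spread of the log ratios arose among peaks of similar log average. Read counts of the peaks are not known. EEF1G, the gamma subunit of the complex that recharges eEF1A with GTP, had 2 CDS peaks, with log ratios of −0.10 upstream and 0.85 downstream. EEF1A1 is not among the genes with a listed peak.

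PABPC1, the poly(A)-binding protein that links both ends of an mRNA and binds an A-rich stretch in its own 5′ UTR, had 5 peaks and a gene value of 0.73, at percentile 81.8. Its 3 peaks in the 5′ UTR had log ratios of 0.57, 1.00 and 0.73, and its 3′ UTR peak had 0.76. The CDS peak stood apart at −0.54. The first 5′ UTR peak overlapped the other 2, by 30 and 26 nt, so these cannot be counted as separate measurements. ETF1, the release factor that reads stop codons, had 1 peak in its 3′ UTR (chr5:137842375-137842426, minus strand, hg19) with a log ratio of 0.45 and a log average of −6.89.

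**Figure D4:**
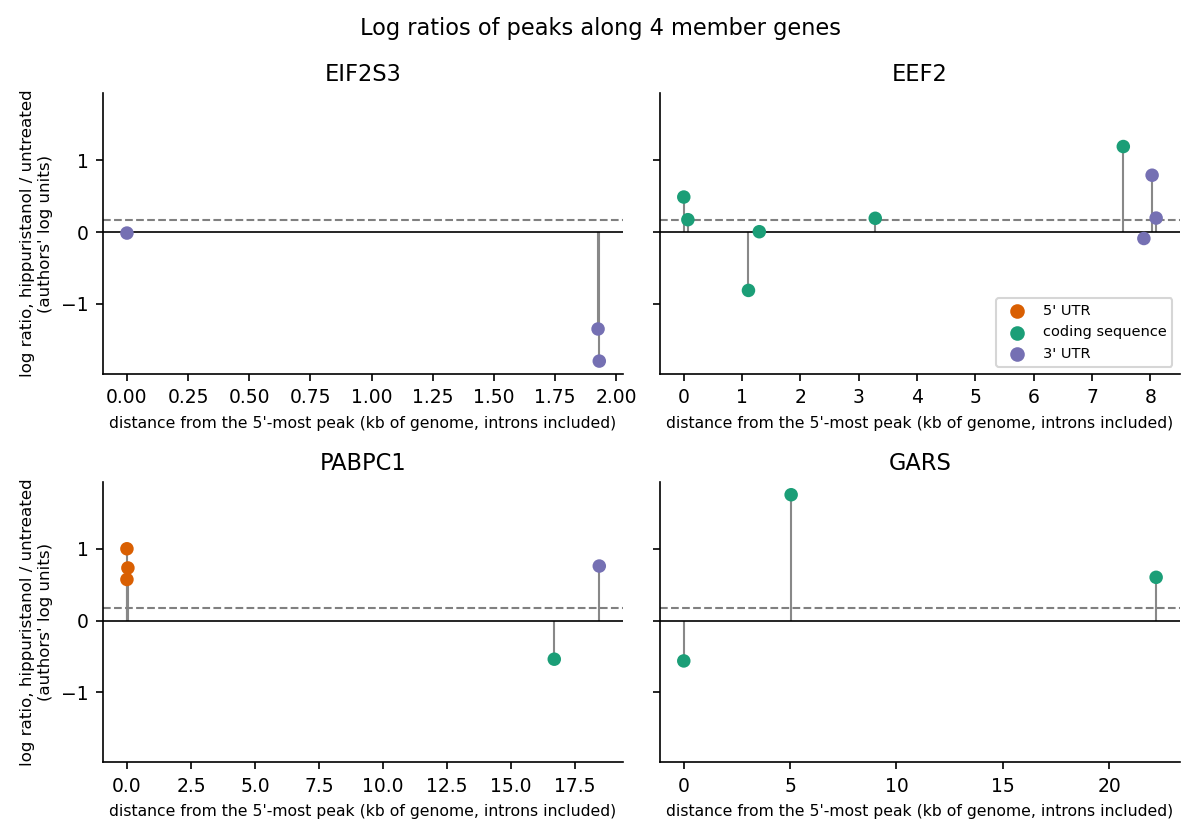
Log ratio of hippuristanol over untreated (authors' log units) of the peaks of EIF2S3, EEF2, PABPC1 and GARS against the distance from the 5′-most peak in kb of genome, coloured by annotation class, with the median of all genes dashed. The EIF2S3 peaks at −1.35 and −1.80 lie together, the 9 peaks of EEF2 scatter from −0.81 to 1.19, and the PABPC1 peak in CDS, at −0.54, is the one below 0.

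Synthetases with peaks were those for aspartate (DARS), glutamate and proline (EPRS), glycine (GARS) and leucine (LARS), and 3 of 4 lay above the median gene. GARS had 3 CDS peaks with log ratios of −0.56, 1.75 and 0.60 from 5′ to 3′. The middle one (chr7:30639586-30639616, plus strand, hg19) was the highest of the 35 peaks, with rank 47 from the top of the table, and it differed by 2.31 from the one upstream, the widest gap within a gene of the set. DARS had a 3′ UTR peak with a log ratio of 0.30, and LARS a 5′ UTR peak with 0.27. EPRS had a CDS peak (chr1:220151996-220152061, minus strand, hg19) with −0.68. DARS, EPRS and LARS belong to the multisynthetase complex, and AIMP2, a scaffold of that complex, had 1 peak in its 3′ UTR with a log ratio of 0.19. The log averages of the 4 synthetase genes lay between −8.62 and −7.88.

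GNB2L1 encodes RACK1, a scaffold on the head of the small ribosomal subunit. Its 2 CDS peaks, 646 nt apart on the genome, had log ratios of 0.13 upstream and −1.73 downstream (chr5:180668510-180668535, minus strand, hg19). The downstream peak had rank 11 from the bottom of the table. Their log averages were −8.15 and −8.26, so peaks of nearly equal log average differed by 1.86 in log ratio. The gene value of −0.80 is the midpoint of the pair and describes neither peak.

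Within genes, non-overlapping peaks often differed widely. The 7 genes with 2 or more peaks formed 51 non-overlapping pairs, whose log ratios differed by 0.00 to 2.31, with a median of 0.79, and 28 of the 51 pairs had the same sign. Most of these pairs come from EEF2 and share peaks. The same figures were not computed for other genes, so neither the spread nor the share is read as particular to these genes. The 4 overlapping pairs, in EEF2, EIF2S3 and PABPC1, differed by 0.16 to 0.45 and had the same sign in each pair. A gene value from 1 peak, which 9 of the 16 genes have, is thus a reading at 1 site.

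Several of these genes have close copies. GENCODE 29 lists 13 pseudogenes named after PABPC1, 8 after EEF1G, 7 after EIF1, 3 each after EIF5A and ETF1, and 1 after GARS. How the authors assigned reads that match more than 1 place is not given, and shared reads were not tested.

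Translation factor mRNAs with a 5′ terminal oligopyrimidine (TOP) tract are controlled through mTOR and LARP1. Of 10 such genes listed, 4 had peaks, EEF1G, EEF2, PABPC1 and GNB2L1, with a median gene value of 0.28 against 0.17 for genes outside the set of 16. With the peak of highest log average in place of the gene median, the difference of 0.12 turned to −0.01. Of their peaks 1 of 18 lay above 1 and 1 below −1. Of 48 further gene names of the pathway, 10 matched a gene with peaks, with a median gene value of 0.31 (95% interval −0.18 to 0.71). Of the 10, 8 lay above 0, where 60.5% of all genes did. The name DAP5 was among the 48, but its peaks are listed under EIF4G2 and are missing from these counts. They ran from −1.15 to 2.04. Above 1 lay 10 of the 34 peaks of the 10 matched genes, where 11.3% of all peaks did. Below −1 lay 0 of the 34, where 4.22% of all peaks did, but EIF4G2 has a peak below −1 and peaks above 1. The high peaks came from few of these genes, and peaks of 1 gene are not independent. They included 5 of the 12 peaks of PPP1R15B and the only peak of RPS6KB1. By gene, only RPS6KB1 had a value above 1, where 9.17% of all genes did. PPP1R15B, the phosphatase subunit that reverses eIF2 alpha phosphorylation, had a gene value of 0.71 and peaks from −0.52 to 1.51, all in the 3′ UTR. LARP1, which binds TOP mRNAs, had 5 peaks in its 3′ UTR, from 0.12 to 0.65. Below 0 lay 2 of the 10 genes, with 1 peak each in the 3′ UTR: LARP4B, a relative of LARP1, at −0.18 and ABCF1, an ABC protein that binds ribosomes and eIF2, at −0.52. RPS6KB1, the S6 kinase below mTOR, had a log ratio of 1.17, and ATF4, whose translation rises when eIF2 is phosphorylated, had 0.10 in its 5′ UTR.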

How the data were processed

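The deposited table holds 1 row per Ago2 peak, with position, annotation class, gene and 2 scores that the authors computed, with no library named. Per the file header, these are a normalized log average of both treatments and a normalized log ratio of hippuristanol over untreated. The log base, the normalization, the peak caller and any filters are not stated in the sources used here. The submitters' processing notes name DESeq, TopHat, Bowtie 0.12.8 and the hg19 build without their roles. Per-library tests planned in case the table held counts could not be run, no test replaced them, and RNA-seq was not analysed here. Depth is unknown.

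Peaks of the same gene with identical values (50 pairs) were counted once. A gene's value is the median of its peaks. Medians have order-statistic intervals and shares exact Clopper-Pearson intervals at 95%, over genes or peaks, which cover neither cultures nor counting error. The interval and the difference of medians were tested on simulated data. Peak positions and widths are printed as listed, with end minus start as width; whether starts count from 0 or 1 is not given. The 3′ UTR sequences came from GENCODE 29 transcripts matched by RefSeq identifier, and all 8 genes with 3′ UTR peaks matched. Python 3.11.15, pandas 2.3.3, numpy 2.4.6, scipy 1.17.1 and matplotlib 3.10.9 were used.

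The members and lists were chosen with earlier results of these data known. All 16 genes are named. Peak values are given in full for genes with 3 or more peaks, for gene values past 1, for the 3 highest and 3 lowest and for up to 3 genes of each role with the highest log averages. Genes of the wider pathway were named after their values were seen, and 1 of them is not reported here. Alternatives changed the gene value, the peaks admitted, the overlap rule and the members.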

Additional observations from a re-analysis of the deposited data

How the results depend on the processing

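Of 62 recomputed values of 13 results, 55 stayed close to the reported value and 7 did not. Close means within its interval, for medians of 2 to 5 genes within 1 SD over those genes, and for counts within 1.5 times. These limits are wide, so a value could count as close and still change sign, as those of synthetases and TOP factors did. The median log ratio of the 16 genes minus that of the others, reported as 0.17, lay between 0.03 and 0.25 in 11 alternatives. The same difference in log average, reported as −1.72, lay between −1.92 and −0.99, with −1.92 for genes with 1 peak only. The 5 genes below the median gene became 2 of 8 with 3′ UTR peaks only, 3 of 7 with CDS peaks only, 0 of 3 with peaks at or above the median log average, 3 of 9 among genes with 1 peak and 2 of 7 among genes with more, where fewer genes were counted, and 7 of 16 with each gene's peak of highest log average, where all were. Taking each gene's peak with the highest log average turned the difference for elongation factors to −0.13 from 0.12, for synthetases to −0.32 from 0.12 and for TOP factors to −0.01 from 0.12, so these have no settled side. Initiation factors eIF1 to eIF3 stayed between −0.89 and −0.71, but EIF2S3 is the only one of them with more than 1 peak. Their median is the value of a single peak that the alternatives could hardly move, so this range is no sign of a settled side. With the median of all peaks (0.15) taken off, an alternative chosen after seeing the data, as were those on annotation shares, 3 peaks lay above 1 (7.48% of all peaks) and 3 below −1 (6.76%). No paired analysis was possible because the table holds 1 log ratio per peak and names no library. For the same reason, fits without a culture or with other count scalings were not run.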
